A study of Mus musculus with 48 samples.

Results

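Tshr, Thra and Thrb encode the receptors of the thyroid axis: the receptor for thyrotropin (TSH) and both nuclear receptors for thyroid hormone. They are 3 of the 25913 genes in the deposited count tables, which cover brown fat (BAT), white fat (WAT) and liver. The mice were C3B6F1 females, an F1 hybrid strain. The genes were picked by name, and Tshr leads because its level in BAT was lower in restricted mice. That pattern is therefore described below without a test, while Thra and Thrb, which were listed as the receptors of the hormone, were tested in every comparison. All 3 genes passed the filter on low counts in BAT and WAT, and Thra and Thrb passed it in liver.

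Full feeding defined the AL group, and lifelong restriction, at 60% of AL intake and begun at 12 weeks of age, the DR group. Old ALDR mice moved from full feeding to restriction at 24 months, and old DRAL mice moved from restriction to full feeding at the same age. In the young ALDR group, aged 5 months, restriction had lasted 2 months. Restriction was brought in stepwise, by 10% a week. Old mice are labelled 26 months, although the protocol gives 27 months at death, and killing fell within the 3 hours ahead of the DR feeding time. BAT and WAT each had 3 libraries of AL and ALDR mice at 5 months, 3 of AL and 3 of DR mice at 26 months and 5 of ALDR mice at 26 months. DRAL mice at 26 months gave 3 BAT and 5 WAT libraries, and liver held 3 ALDR and 3 DRAL libraries of that age. The protocol calls the fat epididymal, for BAT as well, although the mice were female, so the depots dissected are uncertain. Some BAT titles spell the group ADRL, which was read as ALDR from the sample descriptions.

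The TSH receptor is a G protein-coupled receptor that raises cyclic AMP through the stimulatory G protein. It is best known on thyroid follicular cells, and fat cells carry it too, where cyclic AMP drives lipolysis and, in brown fat, heat production. Thyroid hormone enters cells through membrane transporters, is activated or inactivated by deiodinases, and binds the receptors encoded by Thra and Thrb, which sit on DNA with retinoid X receptors and exchange corepressors for coactivators when hormone binds. Thrb is the main form in liver.

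Levels are CPM, read counts scaled to a common library total with sizes adjusted by TMM factors. A change is a log2 fold change from edgeR with its standard error (SE), and a gene is called when its Benjamini-Hochberg adjusted p over all genes tested in the comparison is under 0.05. BAT libraries held 6075585 to 19349912 counts, WAT libraries 12247161 to 22500246 and liver libraries 14678489 to 22893099. BAT was sequenced from polyadenylated RNA and the other tissues from RNA depleted of ribosomal RNA, so levels are not compared across tissues. In 3 of the 22 WAT libraries (AL replicate 3 and ALDR replicate 2 at 26 months, AL replicate 2 at 5 months) Alb, the albumin gene of hepatocytes, lay between 1398 and 2116 CPM, against 16.5 to 113 CPM in the others. WAT results for Tshr, Thra and Thrb are therefore also given without these 3 libraries where that changes a call or a value by more than 1.5 times. Over all genes the calls in WAT for ALDR against AL at 26 months numbered 690 with them and 158 without, and named genes of the WAT lists that lost their call without them are given as such. BAT ALDR replicate 1 at 26 months stood apart as well: without it the genes called between ALDR and AL rose in number from 180 to 835.

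In BAT, Tshr was high in fully fed mice of either age and low in every restricted group. Its gene lies at GRCm38 chr12:91384563-91549808 on the plus strand (ENSMUSG00000020963), with 6012 exonic bases. At 26 months the AL libraries held 33.0, 30.2 and 33.5 CPM, and the DR libraries 5.73, 8.31 and 8.42 CPM. The ALDR libraries of that age held 11.02, 15.5, 13.7, 13.3 and 16.3 CPM, and the DRAL libraries 24.6, 25.3 and 24.4 CPM. At 5 months the AL libraries held 34.9, 32.3 and 31.3 CPM and the ALDR libraries 11.4, 12.7 and 13.7 CPM. No restricted library reached any fully fed library, and the mice returned to full feeding lay between the groups. In bulk tissue, fewer cells of a type and less RNA per cell cannot be told apart.

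**Figure D1:**
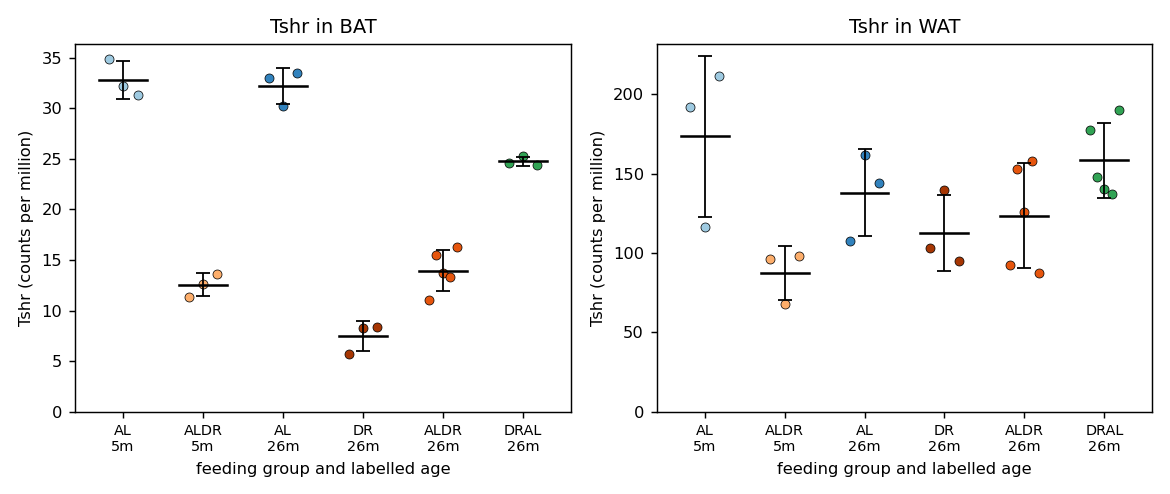
Tshr level in CPM (vertical axis) in each BAT library (left) and WAT library (right) by feeding group and labelled age; points are libraries, the line is the group mean and the bar is ± 1 SD. In BAT the DR libraries lie between 5.73 and 8.42 and the AL libraries of the same age between 30.2 and 33.5; in WAT the groups of 26 months overlap, and the young ALDR libraries lie below the young AL libraries.

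As a description of the values that chose the gene, Tshr in BAT was 4.33-fold lower in DR than in AL (log2 fold change -2.12, SE 0.15, 3 against 3 libraries). It was 2.31-fold lower in ALDR than in AL at 26 months (-1.21, SE 0.12; -1.14 without ALDR replicate 1) and 2.61-fold lower at 5 months (-1.38, SE 0.14). The difference between those last log2 changes was 0.18 (SE 0.18), about its own error. Among old mice Tshr was 3.33-fold higher in DRAL than in DR (1.74, SE 0.15) and 1.88-fold higher in ALDR than in DR (0.91, SE 0.13; 5.21% of all genes called in that comparison). These comparisons share groups, AL among them. Going down by group mean, the order was AL at 5 months (32.8 ± 1.9 CPM, SD, n = 3), AL at 26 months (32.2 ± 1.8, n = 3), DRAL (24.8 ± 0.46, n = 3), ALDR at 26 months (13.9 ± 2.0, n = 5), ALDR at 5 months (12.6 ± 1.1, n = 3) and DR (7.49 ± 1.5, n = 3). Only the AL neighbours and the ALDR neighbours in this order had overlapping libraries.

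The comparisons without a restricted group were tested. Both use AL libraries, which are among the values that chose the gene, so their p-values are not independent of that choice. Between AL mice of 26 and 5 months Tshr in BAT differed by -0.03 (SE 0.13, adjusted p = 0.977; 0.0795% of genes called). In DRAL against AL at 26 months its log2 change was -0.38 (SE 0.13), with all 3 DRAL libraries below all 3 AL libraries. That difference had an unadjusted p of 0.011 and an adjusted p of 0.989, so it was not called. In this comparison 0% of the 13845 genes were called by edgeR, with 656 at an unadjusted p under 0.05 and 6 called by DESeq2.

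Adipocyte marker sums in BAT did not move down with Tshr. The 8 adipocyte markers summed to between 13190 and 15562 CPM in the AL libraries and between 14230 and 15352 CPM in the DR libraries of 26 months, and to 13659 to 14211 CPM and 15347 to 16602 CPM in AL and ALDR at 5 months. Relative to Plin1, which encodes the lipid droplet protein perilipin, Tshr held 0.0241 ± 0.001 counts per Plin1 count in AL (SD, n = 3) and 0.00635 ± 0.0013 in DR (n = 3). Relative to Adipoq, the adiponectin gene, the ratios were 0.052 ± 0.0093 and 0.00939 ± 0.0019. The adipocyte marker sums of the old groups overlap, while the ratios to either marker do not.

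Other markers did move with the group. The 8 brown adipocyte markers, with Ucp1 among them, summed to 6752 to 9608 CPM in AL and 4927 to 5668 CPM in DR at 26 months, and to 7929 to 10543 CPM and 5106 to 6905 CPM in AL and ALDR at 5 months. In ALDR at 26 months, where Tshr was low, they summed to 6746 to 10312 CPM, which overlaps AL. The 5 glial or Schwann cell markers summed to 177 to 256 CPM in AL and 107 to 113 CPM in DR, with S100b at 101 to 188 and 44.1 to 51.3 CPM and Mbp at 45.5 to 56.4 and 41.4 to 47.8 CPM. The 8 skeletal muscle markers summed to 2.29 to 606 CPM in AL and 941 to 3871 CPM in DR, and with a muscle marker score in the model Tshr was -2.09 in DR against AL. The 8 hepatocyte markers summed to 6.41 to 37.3 CPM in AL and 52.7 to 77.4 CPM in DR. At 5 months the glial markers summed to 185 to 250 CPM in AL and 96.4 to 105 CPM in ALDR, the endothelial markers to 921 to 989 and 727 to 802 CPM, the hepatocyte markers to 6.72 to 10.97 and 88.3 to 203 CPM, and the epithelial markers to 6.39 to 13.1 and 36.2 to 87.4 CPM. The part of these shifts, other than the muscle score, in the Tshr values was not tested. The thyroid follicular cell markers Slc26a4, Pax8 and Foxe1 had no count in any BAT library, and the list of 9 summed to at most 18.9 CPM.

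In WAT, Tshr fell with restriction in young mice. The young AL libraries held 192, 116 and 212 CPM and the young ALDR libraries 96.2, 67.5 and 98.2 CPM, with no overlap between the groups. Tshr was 1.99-fold lower in ALDR (log2 fold change -0.99, SE 0.25, adjusted p = 0.00684), in a comparison where 29.2% of 15828 genes were called. The lowest AL library, replicate 2, is among those high in Alb, and without the 3 such libraries the log2 change was -1.23 (adjusted p = 0.00326). Per Plin1 count, Tshr was at 0.0955 ± 0.0267 in young AL and 0.0385 ± 0.0022 in young ALDR (SD, n = 3 each), and per Adipoq count at 0.043 ± 0.0054 and 0.0201 ± 0.002, neither with overlap. Between these groups the adipocyte markers summed to 21320 to 31525 CPM in AL and 33710 to 36977 CPM in ALDR, the macrophage markers to 2116 to 3309 and 1264 to 1700 CPM, and the fibroblast or progenitor markers to 6260 to 7217 and 4108 to 5583 CPM. The hepatocyte markers summed to 329 to 1960 CPM in AL and 2016 to 3841 CPM in ALDR, the glial markers to 66.8 to 75.7 and 47.6 to 53.5 CPM, and the thyroid follicular cell markers to 2.90 to 3.9998 and 0.766 to 2.17 CPM. None of these sums overlapped between the groups. The part of these shifts in the results for Tshr and, below, Thra was not tested.

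At 26 months the WAT groups were not separated for Tshr. AL libraries held 108, 162 and 144 CPM, DR libraries 103, 140 and 95.0 CPM, ALDR libraries 92.6, 153, 126, 158 and 87.1 CPM, and DRAL libraries 177, 148, 140, 137 and 190 CPM. Every pair of neighbours in the order of group means overlapped. The log2 change was -0.29 in DR against AL (SE 0.25, adjusted p = 0.421; 26.0% of genes called), -0.16 in ALDR against AL (SE 0.22, adjusted p = 0.758; 4.36% called) and 0.49 in DRAL against DR (SE 0.23, adjusted p = 0.112; 30.5% called). It was 0.13 in ALDR against DR (SE 0.23, adjusted p = 0.74; 12.8% called), -0.36 in ALDR against DRAL (SE 0.20, adjusted p = 0.224; 12.3% called) and -0.33 in AL of 26 against 5 months (SE 0.25, adjusted p = 0.485; 0.114% called). Single libraries moved these uncalled values: DR against AL ran from -0.48 without DR replicate 2 to -0.16 without AL replicate 2, ALDR against AL from -0.31 without AL replicate 1 to -0.029 without AL replicate 2, and ALDR against DR from 0.023 without DR replicate 3 to 0.32 without DR replicate 2. Without the libraries high in Alb, ALDR against DR was 0.047 (adjusted p = 0.907) and the age comparison -0.59; the age comparison ran from -0.55 without young AL replicate 2 to -0.16 without young AL replicate 3. The ALDR response at 26 months minus that at 5 months was 0.83 (SE 0.34, adjusted p = 0.205; 1.34% called), so the responses at the 2 ages were not shown to differ. Per Plin1 count, Tshr stood at 0.0928 ± 0.0191 in AL and 0.0515 ± 0.005 in DR (SD, n = 3 each), without overlap, and per Adipoq count at 0.0527 ± 0.0076 and 0.0392 ± 0.0088, with overlap.

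In liver, Tshr had 0 counts in all 6 libraries. A count of 0 allows up to 3 counts, which is 0.129 to 0.202 CPM in these libraries, counting error only.

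The genes for the hormones that bind the receptor had almost no counts in these tissues. Of the genes for TSH and the related hormone thyrostimulin, Tshb had no count in any of the 48 libraries, and Cga, Gphb5 and Gpha2 had at most 4 counts in a library. None of the 4 passed the filter in any tissue.

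In BAT, members of the Gs and cyclic AMP list of 18 genes, all tested in every tissue, were called in both directions. In DR against AL at 26 months, 2 rose and 2 fell, beside 11.5% of all 13845 genes called (5.99% higher, 5.52% lower), and the list's median log2 change was 0.09 against -0.01 over all genes. Adcy5, an adenylyl cyclase, fell by 1.87 (SE 0.34, adjusted p = 0.00277), and Gnas, the stimulatory G protein itself, fell by 0.46 (adjusted p = 0.0493). Adcy9, another cyclase, rose by 0.71 (adjusted p = 0.0212), and Prkacb, a catalytic subunit of protein kinase A, by 0.39 (adjusted p = 0.0346). In ALDR against AL at 26 months Adcy5 fell by 1.17 (adjusted p = 0.0462) as the only call of the list, beside 1.3% of all genes (0.578% higher, 0.722% lower). At 5 months Adcy9 and Pde3b, a phosphodiesterase that degrades cyclic AMP, rose, and none fell, beside 14.4% of all genes (7.2% higher, 7.22% lower).

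In WAT the same list had 5 genes higher and 2 lower in DR than in AL, 2 higher in ALDR at 26 months, and 2 higher and 2 lower in ALDR at 5 months. Over all genes, 13.5% were higher and 12.5% lower in DR, 2.66% and 1.7% in ALDR at 26 months, and 14.8% and 14.4% in ALDR at 5 months. Pde3b rose by 1.42, 0.99 and 1.57 in these comparisons (adjusted p = 0.000115, 0.00862 and 4.6e-05). Prkar2b, a regulatory subunit of protein kinase A, rose in all 3, by 0.76, 0.66 and 0.79. Adcy5 fell by 1.37 in DR and, in the young ALDR mice, by 0.78, and Adcy7 fell by 1.30 and 1.46. Without the libraries high in Alb, neither gene called in ALDR at 26 months kept its call (Pde3b 0.96, adjusted p = 0.0567; Prkar2b 0.65, adjusted p = 0.0818), nor did Adcy5 in young ALDR (-0.60, adjusted p = 0.155). The list's medians were 0.02, -0.00 and 0.05, against -0.00, 0.01 and -0.01 over all genes. In liver, 3 of the 18 were higher and 1 lower in ALDR than in DRAL, beside 10.9% and 12.9% of all 12761 genes, with Adcy6, a cyclase, higher by 0.92 and Pde4b, a phosphodiesterase, lower by 1.26.

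Among other fat cell receptors that act on cyclic AMP, Adrb3 was called in opposite directions in the depots. Adrb3, the beta-3 adrenergic receptor of fat cells, fell in BAT by 1.11 in DR (SE 0.18, adjusted p = 0.00125) and by 0.69 in ALDR at 5 months (adjusted p = 0.0149). In WAT it rose by 1.83 in DR (SE 0.26, adjusted p = 7.5e-05), by 1.01 in ALDR at 26 months (adjusted p = 0.0212) and by 1.48 in ALDR at 5 months (adjusted p = 0.000389). The difference between depots was not tested, since their tables come from different library types. Of the 11 genes of this list tested in BAT, 2 rose and 1 fell in DR, none was called in ALDR at 26 months and 3 rose and 3 fell at 5 months, in comparisons where 11.5%, 1.3% and 14.4% of all genes were called. Hcar2, the receptor for ketone bodies and niacin that lowers cyclic AMP, rose in DR by 1.25 in BAT and 1.67 in WAT. Of 12 tested in WAT, 5 rose and 1 fell in DR, 2 rose in ALDR at 26 months, and 4 rose and 2 fell at 5 months, beside 26.0%, 4.36% and 29.2% of all genes called. Neither of the 2 called in ALDR at 26 months kept its call without the libraries high in Alb, where Adrb3 was at 1.12 (adjusted p = 0.0586).

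**Figure D2:**
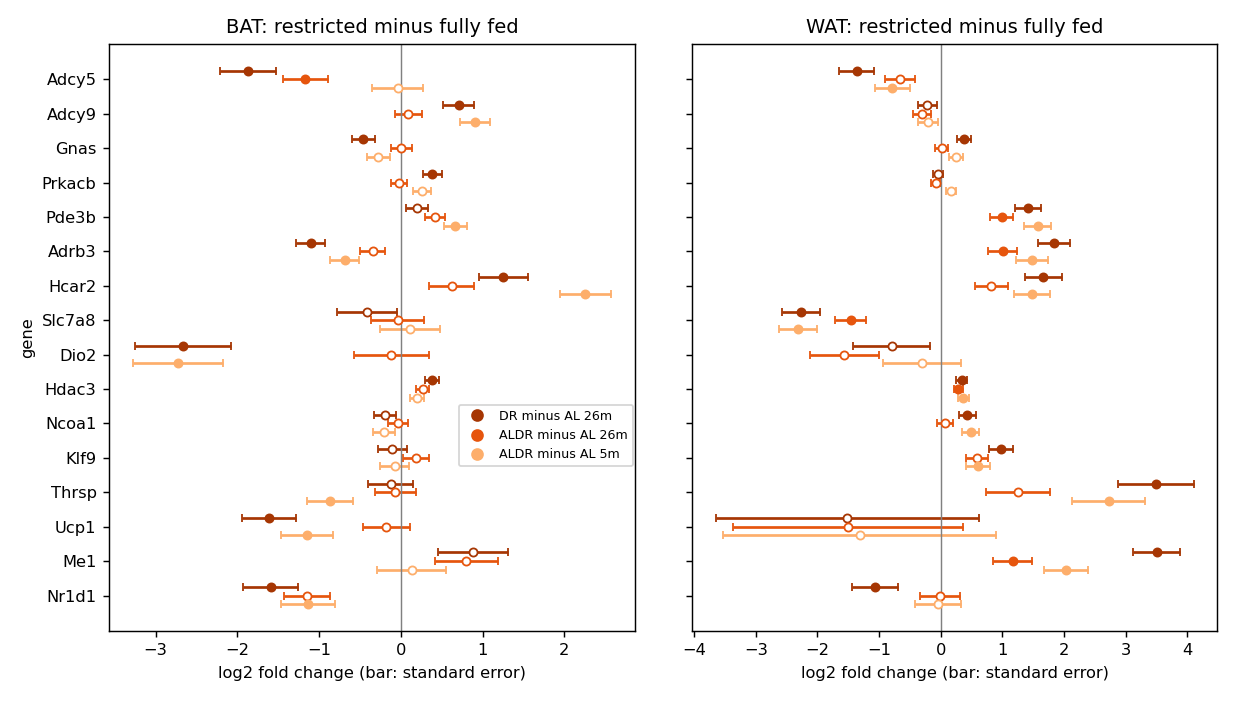
Log2 fold change with its SE (horizontal axis) of 16 genes of the lists described here in BAT (left) and WAT (right), for 3 comparisons of restricted with fully fed mice; filled points passed the test and open points did not. Adrb3 lies at -1.11 in BAT and 1.83 in WAT for DR against AL, while Adcy5 lies below 0 in both depots in that comparison.

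Some thyroid hormone transporters fell in WAT. None of the 5 tested in BAT was called in DR or in ALDR of either age against AL. In WAT, 2 of 7 fell in DR and in ALDR at 26 months: Slc7a8, an amino acid transporter that also carries iodothyronines, by 2.26 and 1.46, and its partner chain Slc3a2 by 0.93 and 0.50. Over all genes, 26.0% were called in DR (12.5% lower) and 4.36% in ALDR at 26 months (1.7% lower), so the share of the list called in DR was near that of all genes. Without the libraries high in Alb, Slc3a2 in ALDR at 26 months was not called (-0.47, adjusted p = 0.107). At 5 months both fell again, by 2.32 and 0.51. The medians of the list were -0.93, -0.35 and -0.56, and in BAT -0.06, -0.04 and 0.11.

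The deiodinase of brown fat, Dio2, which makes active hormone inside the cell, fell with lifelong and early restriction in BAT. At 26 months it stood at 30.5 to 87.0 CPM in AL, 3.87 to 16.9 CPM in DR and 17.8 to 78.6 CPM in ALDR. Its log2 change was -2.66 in DR against AL (SE 0.58, adjusted p = 0.00794) and -2.73 for young ALDR against young AL (SE 0.55, adjusted p = 0.00364). In ALDR against AL at 26 months it was -0.12 (SE 0.46, adjusted p = 0.925), while Tshr in the same libraries was -1.21. The ALDR response of Dio2 at 26 months minus that at 5 months was 2.61 (SE 0.71, adjusted p = 0.16) and was not called, in a comparison where 0.0144% of genes were called. Within old mice Dio2 was higher in ALDR than in DR by 2.55 (SE 0.55, adjusted p = 0.0148) and in DRAL than in DR by 2.17 (SE 0.58, adjusted p = 0.028). The only other call of this list in BAT was Alb in DR, where the AL libraries held 2, 15 and 388 counts. In WAT none of the 6 tested genes of the list was called in DR or ALDR against AL, and Dio2 group means there were 0.697 to 2.05 CPM. Without the libraries high in Alb, 1 gene of the list was called in DR, as higher.

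Thra did not change in BAT by the test in any comparison. The gene lies at GRCm38 chr11:98740638-98769006 on the plus strand (ENSMUSG00000058756), and its group means ran from 111 CPM in ALDR at 26 months to 134 CPM in DRAL. The log2 change furthest from 0 was -0.27 in ALDR against DRAL (SE 0.10, adjusted p = 0.189; 2.02% of genes called). In DR against AL it was -0.03 (SE 0.11, adjusted p = 0.916; between -0.10 and 0.058 without single libraries), in ALDR against AL -0.20 at 26 months (SE 0.10, adjusted p = 0.317) and -0.14 at 5 months (SE 0.11, adjusted p = 0.457). DRAL against DR gave 0.09 (SE 0.11, adjusted p = 0.658). Without single libraries, ALDR against DRAL lay between -0.36 and -0.17 (without DRAL replicates 1 and 2), ALDR against AL between -0.27 and -0.12 at 26 months (without AL replicates 3 and 2) and between -0.21 and -0.10 at 5 months (without ALDR replicate 2 and AL replicate 3), none of them called. All neighbours in the order of BAT groups overlapped.

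In WAT, Thra fell with restriction in young mice. The young AL libraries held 94.2, 90.2 and 117 CPM and the young ALDR libraries 86.3, 81.4 and 77.4 CPM, and Thra fell by 0.30 (SE 0.11, adjusted p = 0.0429). This call was lost in 7 of 14 alternatives, among them each fit without 1 of the ALDR libraries and the fit without AL replicate 3, the highest library, which gave -0.18 (adjusted p = 0.234). At 26 months AL held 104, 121 and 97.3 CPM, DR 84.9, 91.6 and 89.5 CPM, ALDR 96.3, 93.0, 98.8, 107 and 89.2 CPM, and DRAL 120, 114, 105, 94.9 and 112 CPM. The DR libraries lay below every AL library, with a log2 change of -0.28 that missed the threshold (SE 0.11, adjusted p = 0.0638). Without the 3 libraries high in Alb it was -0.34 (adjusted p = 0.0419), and without AL replicate 3 alone also -0.34 (adjusted p = 0.0458).

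Return to full feeding went with higher Thra in WAT: it rose by 0.30 in DRAL against DR (SE 0.10, adjusted p = 0.0258). The call was lost without each of the 3 DR libraries or without DRAL replicate 1 or 2 (0.26 to 0.32, adjusted p up to 0.0817), and with a skeletal muscle marker score in the model (0.21, adjusted p = 0.493). In this comparison the macrophage markers summed to 685 to 1033 CPM in DR and 1662 to 3803 CPM in DRAL, the fibroblast or progenitor markers to 2870 to 3717 and 4923 to 7292 CPM, and the hepatocyte markers to 2014 to 2942 and 421 to 800 CPM, none with overlap. The part of these shifts in the Thra result was not tested. ALDR against AL at 26 months gave -0.15 (SE 0.10, adjusted p = 0.424), ALDR against DR 0.13 (SE 0.10, adjusted p = 0.397) and AL of 26 against 5 months 0.10 (SE 0.11, adjusted p = 0.657). Without single libraries, ALDR against AL ran from -0.21 (without AL replicate 3) to -0.054 (without AL replicate 2), and the age comparison from 0.0012 (without old AL replicate 2) to 0.22 (without young AL replicate 3).

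The 3′ end of Thra shares 263 exonic bases with Nr1d1, a clock repressor encoded on the opposite strand (GRCm38 chr11:98767932-98775333, ENSMUSG00000020889). These are 5.7% of the exonic bases of Thra and 8.55% of those of Nr1d1, and the strand setting of the counting is not given in the sources used here. In BAT, Nr1d1 fell in DR by 1.59 (SE 0.34, adjusted p = 0.00638) while the value for Thra was -0.03. In WAT, Nr1d1 fell in DR by 1.06 (SE 0.37, adjusted p = 0.042) and was at -0.04 in ALDR at 5 months (adjusted p = 0.95), where Thra fell. The value for Thra in WAT DR was -0.28, below 0 like that of Nr1d1, and in DRAL against DR both rose, Nr1d1 by 1.19 (adjusted p = 0.0141) and Thra by 0.30. Without the libraries high in Alb, Nr1d1 in DR was not called (-1.11, adjusted p = 0.0762).

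In liver, Thra was low, with 66 to 147 counts a library. The ALDR libraries held 4.98, 3.10 and 3.82 CPM and the DRAL libraries 7.25, 6.31 and 5.41 CPM, without overlap. Thra was 1.61-fold lower in ALDR (log2 fold change -0.68, SE 0.22, adjusted p = 0.0451), in a comparison where 23.8% of 12761 genes were called. The call was lost in 5 of the 6 fits that leave out 1 library (-0.52 to -0.79, adjusted p = 0.0523 to 0.134; each except the fit without ALDR replicate 1, at -0.87). Nr1d1 fell beside it, from 10.4 ± 0.98 CPM in DRAL to 3.88 ± 0.96 in ALDR (SD, n = 3 each; log2 fold change -1.44, adjusted p = 0.000986), and reads of the shared bases cannot be told apart. The liver groups also differed in marker sums without overlap. Hepatocyte markers summed to 71640 to 81836 CPM in ALDR and 56190 to 64022 CPM in DRAL, epithelial markers to 197 to 275 and 458 to 520 CPM, fibroblast or progenitor markers to 476 to 515 and 410 to 455 CPM, and brown adipocyte markers to 16.3 to 24.2 and 8.35 to 14.8 CPM. The part of these shifts in the Thra result was not tested.

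Where Thrb was called between restricted and fully fed fat, it was higher with restriction. The gene lies at GRCm38 chr14:17660261-18038090 on the plus strand (ENSMUSG00000021779), with 7403 exonic bases. RefSeq gives start sites for it at both an upstream and a far downstream promoter. Both windows of 300 bases (250 before the start, 50 after it, GRCm38.p6, plus strand) are shown, as Thrb alone of the members had windows. Its change passed the test in both fat depots, in different comparisons. Capitals mark AGGTCA, the core of hormone response elements (searched as AGGTCA or TGACCT), in the first and the E-box CACGTG, the element that clock and other factors read, in the second. The first lies at chr14:17660710-17661009, the second at chr14:17981394-17981693.
Thrb upstream window: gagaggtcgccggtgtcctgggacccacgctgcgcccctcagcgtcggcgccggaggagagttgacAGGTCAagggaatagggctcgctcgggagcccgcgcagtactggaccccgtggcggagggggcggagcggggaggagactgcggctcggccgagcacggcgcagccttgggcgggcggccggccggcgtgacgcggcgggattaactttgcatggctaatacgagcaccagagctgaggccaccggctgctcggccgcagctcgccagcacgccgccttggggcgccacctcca
Thrb downstream window: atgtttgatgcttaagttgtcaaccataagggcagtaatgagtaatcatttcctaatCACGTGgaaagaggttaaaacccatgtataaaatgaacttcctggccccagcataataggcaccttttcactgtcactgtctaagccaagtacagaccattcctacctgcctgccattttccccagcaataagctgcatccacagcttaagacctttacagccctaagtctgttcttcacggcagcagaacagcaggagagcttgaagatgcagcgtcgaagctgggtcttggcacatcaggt
AGGTCA begins 184 bases before the upstream start and is found in 16.3% of 32817 RefSeq windows of this length, and CACGTG begins 193 bases before the downstream start and is found in 7.15%. The core of the cAMP response element, searched as TGACG or CGTCA, begins 56 bases before the upstream start and is found in 20.8%. These matches describe the letters only. The table held no window for Tshr or Thra.

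In WAT, Thrb rose with lifelong restriction. AL libraries at 26 months held 36.2, 36.3 and 34.9 CPM and DR libraries 47.1, 68.5 and 51.4 CPM, and the groups did not overlap. Thrb was 1.56-fold higher in DR (log2 fold change 0.64, SE 0.13, adjusted p = 0.00128). It remained called in all 14 alternatives, with adjusted p between 4.2e-05 and 0.0334. In DRAL, at 39.2, 41.4, 39.2, 34.6 and 41.1 CPM, Thrb fell against DR by 0.51 (SE 0.11, adjusted p = 0.00245), and against AL it differed by 0.13 (SE 0.11, adjusted p = 0.587; 2.17% of genes called). Without DR replicate 2, the highest library, the change against DR was -0.33 (adjusted p = 0.0381). The call against DR was lost when the skeletal muscle score entered the model (-0.30, adjusted p = 0.355); muscle markers summed to 353 to 14144 CPM in DR and to 21.1 to 51.4 CPM in DRAL.

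Late and early restriction gave smaller values for Thrb in WAT. ALDR libraries at 26 months held 37.4, 52.7, 47.8, 47.2 and 48.3 CPM, all above the AL libraries, with a log2 change of 0.38 (SE 0.12, adjusted p = 0.0655). Without ALDR replicate 1, the lowest, it was 0.45 and called (adjusted p = 0.0323). At 5 months AL held 43.9, 38.0 and 47.4 CPM and ALDR 55.6, 52.5 and 51.4 CPM, again without overlap, and the change of 0.30 missed the threshold (SE 0.13, adjusted p = 0.0833); without the 3 libraries high in Alb it was 0.20 (adjusted p = 0.33). The difference between the ages was 0.08 (SE 0.17, adjusted p = 0.839; 0.0094 without young AL replicate 3 and 0.17 without young AL replicate 2). Between AL mice of 26 and 5 months Thrb differed by -0.27 (SE 0.13, adjusted p = 0.252), with all old libraries below all young ones, and ALDR against DR gave -0.25 (SE 0.11, adjusted p = 0.145), or -0.08 without DR replicate 2 and -0.36, which was called, without DR replicate 1 (adjusted p = 0.0499).

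**Figure D3:**
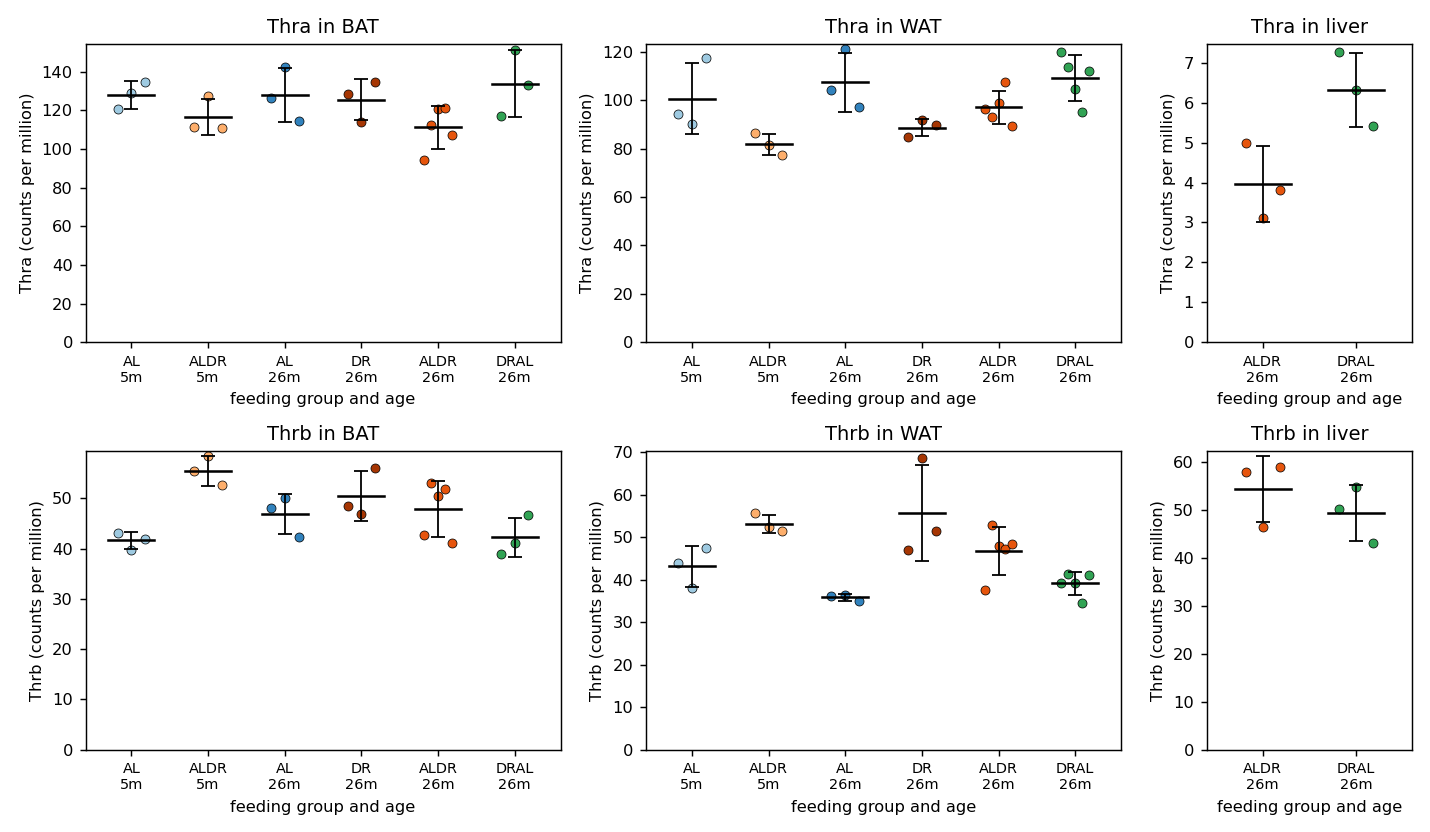
Thra (top) and Thrb (bottom) in CPM (vertical axes) in each library of BAT, WAT and liver by feeding group and age; points are libraries, lines are group means and bars ± 1 SD. In WAT the DR libraries of Thrb lie between 47.1 and 68.5 and the AL libraries of 26 months between 34.9 and 36.3.

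Cell type markers in WAT moved with the groups in which Thrb differed. At 26 months the 8 adipocyte markers summed to 17775 to 19829 CPM in AL and 25168 to 30967 CPM in DR, the 8 macrophage markers to 2493 to 4067 and 685 to 1033 CPM, and the 8 fibroblast or progenitor markers to 5065 to 6291 and 2870 to 3717 CPM. The 8 brown adipocyte markers summed to 46.8 to 94.8 CPM in AL and 143 to 157 CPM in DR. Per Plin1 count, Thrb stood at 0.0241 ± 0.0019 in AL and 0.0255 ± 0.0026 in DR (SD, n = 3 each), with overlapping libraries, and the means of all 6 WAT groups lay between 0.0239 and 0.0258. Per Adipoq count it stood at 0.0138 ± 0.0016 in AL and 0.0195 ± 0.0046 in DR, also with overlap. So the AL and DR libraries, apart in CPM, were not apart per Plin1 or Adipoq count; the part of the marker shifts in the result was not tested.

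In BAT, Thrb rose in young restricted mice. AL libraries at 5 months held 43.2, 39.8 and 41.9 CPM and ALDR libraries 55.4, 58.4 and 52.6 CPM, and Thrb was 1.33-fold higher (log2 fold change 0.41, SE 0.11, adjusted p = 0.0156). Without AL replicate 2, ALDR replicate 1 or ALDR replicate 2 the call was lost (0.37 to 0.41, adjusted p = 0.0692, 0.0554 and 0.059). At 26 months AL held 48.1, 50.1 and 42.4 CPM, DR 48.5, 46.9 and 56.1 CPM, ALDR 42.7, 53.0, 50.5, 51.8 and 41.2 CPM, and DRAL 38.9, 41.2 and 46.6 CPM. The log2 change was 0.11 in DR against AL (SE 0.11, adjusted p = 0.543; 0.027 without DR replicate 3, 0.16 without AL replicate 2 and 0.016 with the muscle score in the model), 0.03 in ALDR against AL (SE 0.10, adjusted p = 0.894; -0.047 with the muscle score in the model) and -0.26 in DRAL against DR (SE 0.11, adjusted p = 0.145; 8.4% of genes called). Between AL mice of 26 and 5 months it was 0.17 (SE 0.11, adjusted p = 0.596). The response at 26 months minus that at 5 months was -0.38 (SE 0.14, adjusted p = 0.277). For young BAT the ratio of Thrb to Plin1 counts was 0.0361 ± 0.0009 in AL and 0.0521 ± 0.0048 in ALDR (SD, n = 3 each), and the ratio to Adipoq counts 0.0704 ± 0.0024 and 0.0597 ± 0.0051. Neither pair overlapped, and they lay in opposite directions. The part of the marker shifts between young BAT groups, given with Tshr, in the Thrb result was not tested.

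In liver, Thrb did not differ by the test. ALDR libraries held 58.0, 46.5 and 58.9 CPM and DRAL libraries 50.1, 54.9 and 43.2 CPM, with overlap (log2 fold change 0.14, SE 0.13, adjusted p = 0.485; 0.049 without DRAL replicate 3 and 0.25 without ALDR replicate 2).

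**Figure D4:**
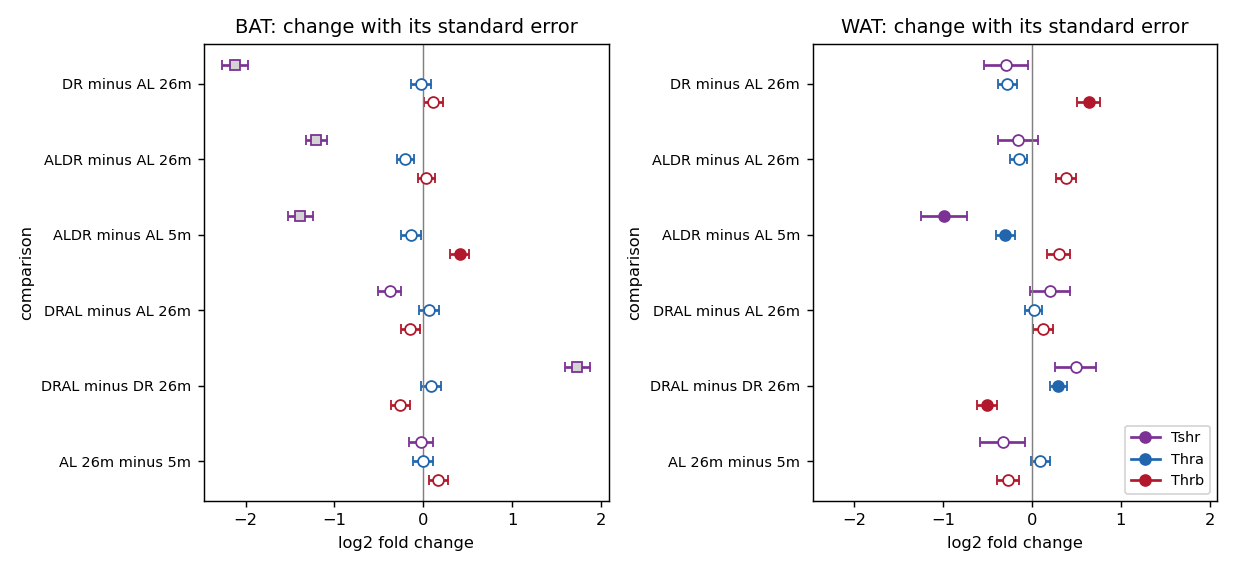
Log2 fold change with its SE (horizontal axis) of Tshr, Thra and Thrb in 6 comparisons of BAT (left) and WAT (right); filled circles passed the test, open circles did not, and grey squares are Tshr values described without a test. In WAT, Thra lies at -0.28 and Thrb at 0.64 in DR against AL, on opposite sides of 0.

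Within a library the hormone receptors can be set against each other per exonic base, which no scaling of library size affects. In WAT the ratio of Thrb to Thra was 0.209 ± 0.019 in AL, 0.39 ± 0.066 in DR (SD, n = 3 each), 0.302 ± 0.045 in ALDR (n = 5) and 0.224 ± 0.012 in DRAL (n = 5) at 26 months. At 5 months it was 0.268 ± 0.02 in AL and 0.406 ± 0.0069 in ALDR (n = 3 each). Every restricted WAT library had a higher ratio than every fully fed library of its age, DRAL included. In BAT the ratio was 0.203 ± 0.017 in AL and 0.297 ± 0.013 in ALDR at 5 months, without overlap. At 26 months in BAT it was 0.229 ± 0.0091 in AL, 0.251 ± 0.013 in DR, 0.269 ± 0.021 in ALDR (n = 5) and 0.198 ± 0.026 in DRAL. Here AL and DR libraries overlapped (0.219 to 0.237 and 0.236 to 0.26). The ALDR libraries (0.239 to 0.294) lay above every AL library, and the DRAL libraries (0.17 to 0.218) below every AL library. Thra was the more abundant transcript per base in both depots, and in liver Thrb was, at 8.74 ± 1.3 times Thra in ALDR and 4.9 ± 0.56 times in DRAL (n = 3 each).

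**Figure D5:**
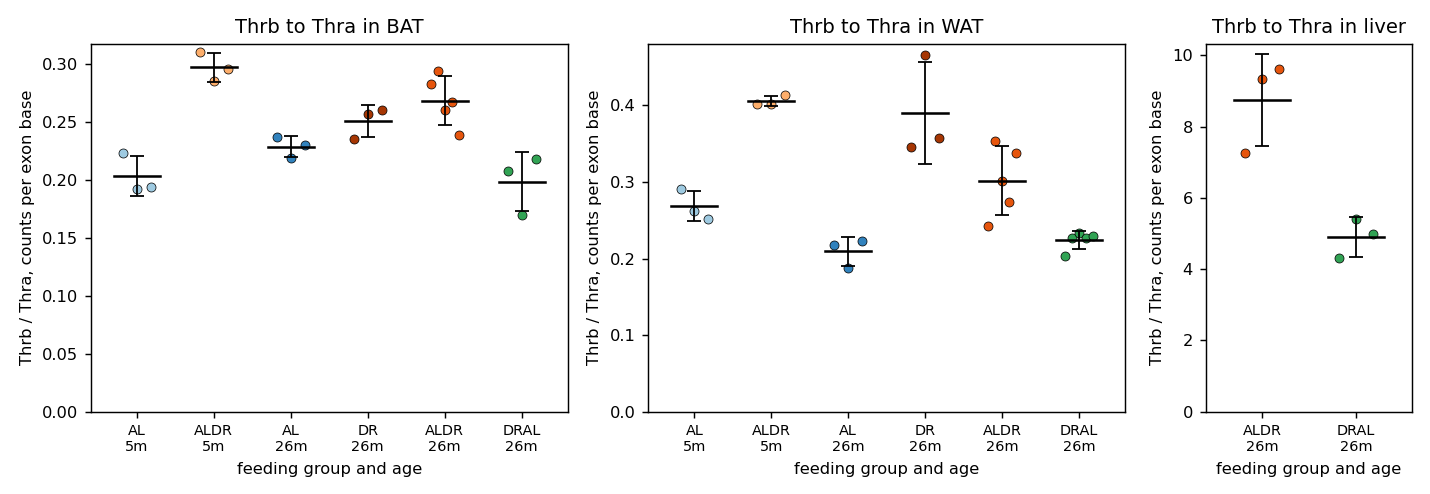
Ratio of Thrb to Thra counts per exonic base (vertical axis) in each library of BAT, WAT and liver by feeding group and age, with group means and ± 1 SD. In WAT at 26 months the DR mean is 0.39 and the AL mean 0.209.

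Among receptor partners and coregulators, Hdac3 rose in DR in both fat depots. Of 15 genes, all tested, BAT had 1 higher (Hdac3, a corepressor enzyme, by 0.38, adjusted p = 0.00895) and 1 lower (Med1, a coactivator subunit, by 0.33) in DR, none in ALDR at 26 months, and 2 higher and 2 lower at 5 months, where 11.5%, 1.3% and 14.4% of all genes were called. In WAT, 3 rose in DR (Hdac3 by 0.34, Ncoa1, a coactivator, by 0.43 and Tbl1xr1, a corepressor subunit, by 0.25), 1 in ALDR at 26 months (Hdac3) and 4 at 5 months (Rxrb, Hdac3, Ncor1 and Ncoa1), and none fell, beside 13.5%, 2.66% and 14.8% of all genes higher. Without the libraries high in Alb, calls were lost for Ncoa1 (0.36, adjusted p = 0.104) and Tbl1xr1 (0.22, adjusted p = 0.0573) in DR, Hdac3 in ALDR at 26 months (0.33, adjusted p = 0.0583) and Ncoa1 at 5 months (0.36, adjusted p = 0.101). The WAT medians were 0.13, 0.09 and 0.03. In liver, Ncor1, the main corepressor, was higher in ALDR by 0.69 (adjusted p = 0.00418) and Rxrg lower by 0.75, out of 15, in a comparison where 23.8% of all genes were called.

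Genes known to respond to thyroid hormone did not move in 1 direction. In BAT, 16 of the 18 were tested: 1 rose and 4 fell in DR, none was called in ALDR at 26 months, and 2 rose and 5 fell at 5 months, with medians of -0.10, -0.01 and -0.52. Over all genes 5.99% rose and 5.52% fell in DR, and 7.2% rose and 7.22% fell at 5 months. Ucp1, the uncoupling protein of brown fat, fell by 1.61 in DR (SE 0.33, adjusted p = 0.005) and by 1.15 in young ALDR (adjusted p = 0.0244), and stood at -0.18 in old ALDR (adjusted p = 0.791). Bcl3, an NF-kB cofactor, fell by 1.06 and Hr, the hairless corepressor, by 1.23 in DR.

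In WAT, all 18 were tested: 8 rose and 2 fell in DR, 2 rose in ALDR at 26 months, and 7 rose and 4 fell at 5 months, with medians of 0.40, 0.11 and 0.04. Over all genes 26.0%, 4.36% and 29.2% were called in these comparisons. The 4 with the smallest adjusted p in DR all rose: Me1, malic enzyme, by 3.50, Acaca, acetyl-CoA carboxylase, by 4.02 and Fasn, fatty acid synthase, by 3.71, which make fatty acids or supply that pathway, and Gpd2, mitochondrial glycerol-3-phosphate dehydrogenase, by 2.02. Thrsp, named for its response to the hormone, rose by 3.49 in DR (SE 0.62, adjusted p = 0.000469), while in BAT it stood at -0.13 (adjusted p = 0.814). Klf9, a direct target of the receptors, rose by 0.98 in WAT DR (SE 0.19, adjusted p = 0.00122) and fell by 1.08 in DRAL against DR (adjusted p = 0.0002). In BAT, Klf9 stood at -0.10 in DR (adjusted p = 0.759).

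In liver, ALDR against DRAL had 4 of 16 responsive genes higher and 5 lower, beside 10.9% and 12.9% of all genes, with Fasn lower by 2.23 and Cpt1a, which admits fatty acids to mitochondria, higher by 1.27. Dio1, the liver deiodinase, was higher by 0.77 (adjusted p = 0.0335), and Serpina7, the thyroxine-binding globulin, lower by 1.41 (SE 0.15, adjusted p = 0.000265), and with Alb, higher by 0.37, these were 2 higher and 1 lower of 5 deiodinase and binding protein genes tested. Of the transporters, Slco1a4 was higher by 1.04 and Slc16a10 by 0.54, out of 7 tested. For these lists too, 23.8% of all genes were called.

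Tshr in BAT shared its pattern with several genes over the 20 libraries, as a description in which groups, diets and library scaling are common to all points. The 5 genes most like it in log2 CPM were Gramd4 (Pearson r 0.94), Itsn1 (0.92), Grk3 (0.92), Dusp8 (0.90) and Leo1 (0.90), and the 5 most opposed were Lonrf1 (-0.93), Nxnl1 (-0.93), Dnajb6 (-0.93), Herpud1 (-0.92) and Gstt2 (-0.92). After group means were removed, r was -0.01 for Gramd4, 0.74 for Dusp8, which encodes a MAP kinase phosphatase, and -0.82 for Herpud1, a gene of endoplasmic reticulum stress. So Gramd4 followed Tshr between groups and not within them, Dusp8 followed it in both, and Herpud1 ran opposite to it in both. Within groups, r was 0.17 for Itsn1, 0.33 for Grk3 and 0.63 for Leo1. It was -0.21 for Lonrf1, -0.20 for Nxnl1, -0.59 for Dnajb6 and -0.095 for Gstt2. For Dio2 the values were 0.80 over all libraries and 0.73 within groups, for Adrb3 0.83 and 0.25, and for Lep, the leptin gene, 0.69 and -0.54.

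In WAT, over 22 libraries, Tshr was most like Tanc2 (r 0.88), Lmntd1 (0.86) and Fam214b (0.86), and most opposed to Trabd (-0.87). Its r with Lep was 0.78, and 0.58 within groups. Lep fell in WAT by 3.03 in DR (adjusted p = 0.000281), and it was 13.9-fold lower in ALDR than in AL at 5 months (adjusted p = 4.8e-05).

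Thrb in WAT was most like Vkorc1l1 (r 0.93) and Sort1, the sorting receptor sortilin (0.92), and most opposed to Tspyl4 (-0.93) and Lmo2 (-0.89). In BAT it was most like Syne3 (0.91), Sox6 (0.89), Cmtm4 (0.88) and the cyclase Adcy9 (0.87), and Adcy9 kept r at 0.81 within groups. Thra in BAT was most like Mcam (0.82) and Spryd3 (0.80) and in WAT like Xkr4 (0.84) and Mutyh (0.83). Between the members, Tshr and Thra had r of 0.75 in WAT and 0.32 in BAT, and Tshr and Thrb -0.24 and -0.53.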

How the data were processed

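RNA was measured by sequencing in 48 libraries. The authors deposited 3 tables, 1 per tissue, of read counts per gene. The submitters' processing notes name Trim Galore 0.3.7, TopHat2 2.0.14, DESeq2 and build GRCm38, and the counting program, annotation, strand setting and filters are not given in the sources used here. The values were whole numbers with unequal totals and were taken as raw counts. Symbols (25012 of 25913 identifiers), exon lengths and coordinates came from GENCODE M21 for GRCm38, and promoter windows from RefSeq.

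Each tissue was fitted with edgeR 4.0.16 in R 4.3.3 (quasi-likelihood test, filterByExpr, TMM factors, all groups in 1 fit), with Benjamini-Hochberg adjustment over all genes tested: 13845 in BAT, 15828 in WAT and 12761 in liver. The code was tested on simulated counts. The labels call the libraries biological replicates. Comparisons against AL share the AL libraries, and those of old mice share ALDR, DR and DRAL libraries. No library repeated another of its group (chi-square per degree of freedom at least 8.16). Likeness used log2 CPM with a prior count of 2, naming 5 genes a side. The members and gene lists were chosen with earlier results of these data known. From each list up to 4 called genes with the smallest adjusted p a comparison are named, plus Nr1d1, Dio2, Ucp1, Adrb3, Thrsp, Klf9 and Lep. Results for some genes that this rule selects are not reported here.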

Additional observations from a re-analysis of the deposited data

How the results depend on the processing

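The 20 results of DR or ALDR against AL in fat and of liver were recomputed under DESeq2 1.42.0, RLE or upper-quartile scaling, no filter on low counts, only the groups compared, a replicate block, a skeletal muscle score as covariate, and without each library in turn. WAT, its gene lists included, was also fitted without the 3 libraries high in Alb, chosen after seeing the data. Of the 10 hormone-responsive genes called there in DR, 9 kept their call in that fit, and 8 of 11 at 5 months. Of 238 values of the 17 tested results, 210 kept direction and side of the threshold, and the cause of the others was not tested. The other 41 values, of Tshr in BAT, carry no test and kept their direction (-2.23 to -1.94 for DR against AL). Tshr in young WAT kept its call (adjusted p 0.000776 to 0.0476).

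Thra in young WAT was not called with no filter (-0.30), with only the groups compared (-0.32) or with the replicate block (-0.30), and lay between -0.37 and -0.18 without single libraries. Thra in WAT for DR against AL was called with DESeq2 (-0.28), upper-quartile scaling (-0.29) and without the libraries high in Alb (-0.34), with -0.34 to -0.18 without single libraries. Thrb in WAT for ALDR against AL at 26 months was called with DESeq2 (0.38) and upper-quartile scaling (0.39), with 0.32 to 0.45 without single libraries. Thra in liver was not called with the replicate block (-0.69) and lay between -0.87 and -0.52 without single libraries. Thrb in young BAT lay between 0.37 and 0.45 without single libraries and was 0.46 with the muscle score.

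Values near 0 changed sign. Thrb in BAT for ALDR against AL at 26 months was -0.047 with the muscle score and -0.037 to 0.082 without single libraries. Thra in BAT for DR against AL was -0.16 with the muscle score and -0.10 to 0.058 without single libraries. For AL of 26 against 5 months in BAT, Thra was 0.0028 with DESeq2, 0.0031 with RLE, 0.043 with upper-quartile scaling, 0.0051 with only the groups compared, 0.11 with the muscle score and -0.088 to 0.069 without single libraries, and Tshr 0.018 with upper-quartile scaling and -0.059 to 0.0201 without single libraries. Without single libraries Thra in BAT lay between -0.033 and 0.15 for DRAL against AL, -0.0074 and 0.18 for DRAL against DR and -0.14 and 0.021 for the difference of ages, and Thrb between -0.13 and 0.0044 for ALDR against DR. Thra in WAT for DRAL against AL was -0.013 with the muscle score, -0.028 without the libraries high in Alb and -0.045 to 0.12 without single libraries.

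Same-numbered libraries of a tissue did not deviate from their group means together on average. Their mean correlation was -0.025 in BAT, 0.003 in WAT and -0.19 in liver, against 0.010, 0.00061 and 0.10 for other numbers. Single pairs in WAT ran from -0.65 to 0.58, and liver had 3 pairs. Whether equal numbers in different tissues mark the same mouse was not tested. With the replicate block, Thra in WAT for DRAL against DR was not called (0.32, adjusted p = 0.0527). Genes called with it rose from 1594 to 2014 for DR against AL in BAT and fell from 3038 to 2028 in liver.

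Counts of genes called ranged widely: 609 to 2014 for DR against AL in BAT (1594 reported), 4 to 835 for ALDR against AL at 26 months (180), 835 to 2936 at 5 months (1997), 1966 to 4650 for DR against AL in WAT (4114), 158 to 1220 for ALDR against AL at 26 months (690), 3007 to 4987 at 5 months (4619), 443 to 5297 for DRAL against DR (4825), 388 to 1517 for DRAL against DR in BAT (1163), 61 to 932 for DRAL against AL in WAT (344), 63 to 1136 for ALDR against DR in BAT (722) and 546 to 2691 in WAT (2021), 6 to 737 for ALDR against DRAL in BAT (279) and 638 to 2848 in WAT (1953), 2 to 124 for AL of 26 against 5 months in BAT (11) and 0 to 1707 in WAT (18), and 0 to 159 for the difference of ages in BAT (2) and 18 to 725 in WAT (212).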

Other observations

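Dio1, the deiodinase of liver and thyroid, had counts in 3 of the 22 WAT libraries, 119 in all and 92 in 1 library, and these were the 3 libraries high in Alb. Slc5a5, the iodide transporter of thyroid cells, had 253 counts over 17 of the 20 BAT libraries and 29 over 9 of the WAT libraries. Nkx2-1, a transcription factor of thyroid and lung, had counts in all 22 WAT libraries, 33 at most, and in 1 BAT library. Dio3, the deiodinase that inactivates the hormone, had 171 counts over 20 WAT libraries and 4 over 2 BAT libraries. In liver, 4 of the 6 libraries held more than 2 counts of 4 Y-linked genes, up to 20, although the mice are labelled female, and no BAT or WAT library did.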
